A study of Homo sapiens with 12 samples.

Results

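The 8 genes described here were the 4 inhibitor of DNA binding genes ID1, ID2, ID3 and ID4, the inhibitory SMAD genes SMAD6 and SMAD7, the receptor-regulated SMAD gene SMAD9, and BAMBI, which encodes a receptor decoy. They were taken by gene symbol from a deposited expression table of HEK293T cells, and make up 8 of its 56337 distinct gene IDs. All 8 averaged more than 1 FPKM over the libraries and so were tested, with 13682 genes in all. FPKM is a level scaled to transcript length and library depth. The genes were chosen on their FPKM in all 12 libraries, which were known, so their levels and differences are given as a description, with no p-values.

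HEK293T cells derive from human embryonic kidney and express the large T antigen of SV40. All cultures were wild type and grown in RPMI medium with serum. A first incubation of 24 h, in 0.1 mg/ml Ferric Ammonium Citrate (FAC), which supplies iron, or in medium without it, was followed by 24 h in 10 nM bafilomycin A1 (BafA1), which blocks the proton pump that acidifies lysosomes, or without it. The groups were FAC+BafA1, BafA1 without FAC, FAC without BafA1, and control with neither, with 3 libraries of polyadenylated RNA each. The study used a single cell line, and its labels number the replicates without saying that they came from separate cultures, so errors and p-values measure the spread between these libraries, which may be technical.

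Bone morphogenetic proteins (BMPs) are secreted ligands that bring together type I and type II receptor kinases at the cell surface. The activated type I receptor phosphorylates SMAD1, SMAD5 and SMAD9, which join SMAD4 and enter the nucleus. ID1 to ID4 are among the best known direct targets of these complexes. ID proteins are helix-loop-helix proteins without a DNA-binding region, and they hold E proteins such as TCF3 away from DNA. SMAD6, SMAD7 and BAMBI are targets that feed back on the pathway: SMAD6 and SMAD7 block the receptor and SMAD steps, and BAMBI resembles a type I receptor that lacks the kinase. In the liver, the same pathway links iron to hepcidin (HAMP), through BMP6.

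The libraries had an estimated 34.5 to 37.75 M fragments each (M, 10 to the power of 6), read from the steps between low FPKM values, and 13244 to 13597 genes at 1 FPKM or more. Of 7 genes listed as HEK293T markers, 5 had a mean of at least 1 FPKM in every group, while PAX2 and LHX1 did not. Their summed level was 681.21 to 688.06 FPKM in FAC+BafA1, 849.58 to 860.59 in BafA1, 441.38 to 453.71 in FAC and 461.16 to 467.98 in control. None of the 6 keratinocyte or HeLa cell markers and none of the 5 endothelial markers reached that mean, against 1 of 6 for fibroblasts (COL1A1). Which entries of the table were filled differed with FAC: 304 gene IDs were at 0 in all 6 libraries without FAC and at 1 FPKM or more in all 6 with it, and 323 IDs the other way round. Of these 627 IDs, 595 are not protein coding and 0 are among the 8 genes or the pathway lists below. The libraries with FAC may have been annotated or quantified in another way than those without, and in comparisons of libraries with and without FAC this cannot be told apart from FAC. The part of these differences in the values below was not tested.

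To place the genes, the 250 bases before each annotated start were read from RefSeq on GRCh38.p14, where all 8 genes had an entry, and searched on both strands for 4 motifs. These were GGCGCC, a GC-rich element bound by BMP-responsive SMADs, GTCTAGAC, the palindromic SMAD-binding element, CAGAC, the SMAD box, which reads GTCTG on the other strand, and TATAAA, the TATA box, which reads TTTATA on the other strand. The 6 sequences below are shown because the results turn on the ID family and because SMAD6 and BAMBI held the longer SMAD motifs. Capitals mark the motif matches. Gene ranges are from GENCODE and starts from RefSeq, so the windows of ID1, ID2, SMAD9 and BAMBI end inside the GENCODE range. ID1 lies on chr20:31605283-31606515 (plus strand), and its window is chr20:31605039-31605288. ID2 lies on chr2:8678845-8684461 (plus strand), with the window chr2:8681806-8682055. ID3 lies on chr1:23557926-23559501 (minus strand), with the window chr1:23559502-23559751. ID4 lies on chr6:19837370-19842197 (plus strand), with the window chr6:19837120-19837369. SMAD6 lies on chr15:66702236-66782849 (plus strand), with the window chr15:66701986-66702235. BAMBI lies on chr10:28677510-28682932 (plus strand), with the window chr10:28677271-28677520.
ID1: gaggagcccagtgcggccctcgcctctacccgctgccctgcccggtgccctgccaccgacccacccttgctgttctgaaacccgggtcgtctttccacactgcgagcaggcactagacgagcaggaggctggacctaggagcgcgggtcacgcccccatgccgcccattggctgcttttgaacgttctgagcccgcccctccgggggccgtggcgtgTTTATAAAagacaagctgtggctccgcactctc
ID2: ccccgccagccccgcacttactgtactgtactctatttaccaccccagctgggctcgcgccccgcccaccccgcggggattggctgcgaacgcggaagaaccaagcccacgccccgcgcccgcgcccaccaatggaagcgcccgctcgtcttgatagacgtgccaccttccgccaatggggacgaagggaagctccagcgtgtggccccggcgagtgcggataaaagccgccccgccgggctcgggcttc
ID3: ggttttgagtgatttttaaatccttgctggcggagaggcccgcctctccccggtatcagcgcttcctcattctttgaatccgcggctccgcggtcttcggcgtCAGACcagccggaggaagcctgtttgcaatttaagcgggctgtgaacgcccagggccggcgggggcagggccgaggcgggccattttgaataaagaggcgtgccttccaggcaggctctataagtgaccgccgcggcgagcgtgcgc
ID4: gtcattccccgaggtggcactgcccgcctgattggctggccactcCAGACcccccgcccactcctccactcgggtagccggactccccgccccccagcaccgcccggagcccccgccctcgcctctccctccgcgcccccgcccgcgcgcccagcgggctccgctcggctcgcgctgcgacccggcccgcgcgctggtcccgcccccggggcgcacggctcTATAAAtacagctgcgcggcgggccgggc
SMAD6: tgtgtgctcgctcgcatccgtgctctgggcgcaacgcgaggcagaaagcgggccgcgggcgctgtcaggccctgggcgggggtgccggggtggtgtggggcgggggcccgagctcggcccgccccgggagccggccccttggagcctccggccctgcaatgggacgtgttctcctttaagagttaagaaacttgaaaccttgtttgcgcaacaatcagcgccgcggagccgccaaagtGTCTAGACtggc
BAMBI: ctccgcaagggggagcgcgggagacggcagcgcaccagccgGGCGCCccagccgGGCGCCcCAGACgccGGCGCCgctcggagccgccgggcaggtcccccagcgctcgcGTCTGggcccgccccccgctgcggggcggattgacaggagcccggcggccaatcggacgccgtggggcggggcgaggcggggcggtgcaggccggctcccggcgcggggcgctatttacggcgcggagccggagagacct

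The ID family windows differed in what they held. ID1 and ID4 had a TATAAA match close to the start, from 31 and 29 bases before it. In ID1 the TATAAA match on one strand overlapped that on the other. ID2 held none of the 4 motifs, and ID3 held a single CAGAC. BAMBI held 3 copies of GGCGCC, the first beginning 209 bases before the start, and 2 matches to CAGAC. SMAD6 held GTCTAGAC from 12 to 5 bases before its start. Among all 35116 promoter windows of the same length, 16.4% held GGCGCC, 0.182% held GTCTAGAC, 38.0% held CAGAC and 10.7% held TATAAA. A match is a description of these letters, and the well-studied BMP-responsive element of ID1 lies farther upstream than this window. The share of G and C was 66.0% in ID1, 69.2% in ID2, 62.0% in ID3, 78.8% in ID4, 68.0% in SMAD6 and 81.2% in BAMBI. SMAD7, on chr18:48919853-48950965 (minus strand), had 48.0% and 2 matches to CAGAC, and SMAD9, on chr13:36844831-36920887 (minus strand), had 78.4% and none of the motifs.

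In iron-loaded cells all 8 genes were lower than in control, and among them ID3 and ID1 were lowest relative to control. ID3 was at 4.7, 3.79 and 3.7 FPKM in FAC, against 58.04, 63.5 and 59.65 FPKM in control. Every FAC library lay far below every control library. The means, 4.06 ± 0.553 FPKM in FAC and 60.4 ± 2.81 in control (SD, n = 3 each), differed 14.9-fold, and the log2 difference was -3.60 ± 0.0932 (limma SE, on log2(FPKM + 1), which understates changes of low genes). In bulk RNA, a lower level in every cell and fewer cells with the transcript cannot be told apart. With BafA1 as well, ID3 was at 7.31, 6.31 and 6.45 FPKM in FAC+BafA1, against 17.3, 14.31 and 18.05 FPKM in BafA1. From low to high the groups stood in the order FAC, FAC+BafA1, BafA1 and control, and no neighbouring groups overlapped. Without FAC, ID3 was lower with BafA1, by a log2 difference of -1.81 ± 0.0932 (BafA1 minus control). After FAC it was higher with BafA1, by 0.61 ± 0.0932 (FAC+BafA1 minus FAC).

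ID1, a direct BMP target whose protein holds back differentiation in many cell types, was the lowest of the family in every group. ID1 was at 0.93, 0.49 and 0.62 FPKM in FAC, against 7.28, 5.6 and 5.64 FPKM in control. At the estimated depth these FAC values correspond to 15 to 37 fragments per library, against 172 to 272 in control, so ID1 in FAC rests on few fragments. Its FAC mean, 0.68 ± 0.226 FPKM, was 9.08-fold below the control mean of 6.17 ± 0.959 (SD, n = 3 each), with a log2 difference of -2.09 ± 0.124. In FAC+BafA1 it was at 1.31, 1.45 and 1.47 FPKM, above all 3 FAC libraries. BafA1 libraries had 3.08, 3.18 and 4.1 FPKM, below all 3 control libraries. The groups stood in the same order as for ID3, with no neighbours overlapping. The log2 difference between FAC+BafA1 and FAC was 0.53 ± 0.124, and that between BafA1 and control was -0.69 ± 0.124. With 0.1 in place of 1 added to each FPKM, the difference between FAC+BafA1 and FAC was 0.99.

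ID2, the most abundant of the 8 genes in every group, encodes an ID protein with wide expression. It was at 25.1, 23.04 and 26.25 FPKM in FAC, against 113.33, 114.11 and 110.51 FPKM in control. The highest FAC library lay far below the lowest control library, and BafA1 stood between them. The log2 difference was -2.14 ± 0.0539, a 4.54-fold lower mean in FAC. In FAC+BafA1 the values were 24.39, 21.62 and 23.43 FPKM and overlapped those of FAC, with a log2 difference of -0.10 ± 0.0539 between these groups. BafA1 libraries held 68.82, 66.41 and 62.95 FPKM and differed from control by -0.76 ± 0.0539. The ID2 locus overlaps an antisense transcript, ID2-AS1, by 125 exon bases, and whether the authors counted by strand is not given in the sources used here. ID2-AS1 itself was at 0 to 0.49 FPKM in the 12 libraries. The processed pseudogene ID2B was at 0.03 to 0.14 FPKM in the 6 libraries without FAC and at 0 in the 6 with FAC. Being under 1 FPKM, ID2B was not counted among the entries filled on one side of FAC only.

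ID4 departed from the other ID genes under BafA1. It was at 42.05, 41.9 and 40.57 FPKM in BafA1, against 25.21, 24.8 and 23.7 FPKM in control, so that every BafA1 library lay above every control library. The mean was 1.69-fold higher in BafA1 and the log2 difference was 0.73 ± 0.0516. With FAC alone it was at 14.43, 13.5 and 15.64 FPKM, below all control libraries, with a log2 difference of -0.72 ± 0.0516. FAC+BafA1 held 16.44, 15.19 and 16.12 FPKM, which overlapped FAC. The FAC+BafA1 mean was 2.61-fold below that of BafA1 without FAC. The log2 difference between FAC+BafA1 and FAC was 0.13 ± 0.0516, which passed the adjusted threshold only without the third FAC library, at 0.18.

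Summed over the 4 genes, ID transcript levels were 47.2 ± 2.45 FPKM in FAC+BafA1, 127.6 ± 3.15 in BafA1, 44.1 ± 2.86 in FAC and 203.8 ± 4.25 in control (SD, n = 3 each). ID2 made up 49.1% of the sum in FAC+BafA1, 51.8% in BafA1, 56.3% in FAC and 55.3% in control. The rest of the family shifted towards ID4. The share of ID4 was 33.8% in FAC+BafA1, 32.5% in BafA1, 33.0% in FAC and 12.1% in control. The share of ID3 was 14.2% in FAC+BafA1, 13.0% in BafA1, 9.23% in FAC and 29.6% in control. The share of ID1 lay between 1.53% and 3.03% in all groups.

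**Figure D1:**
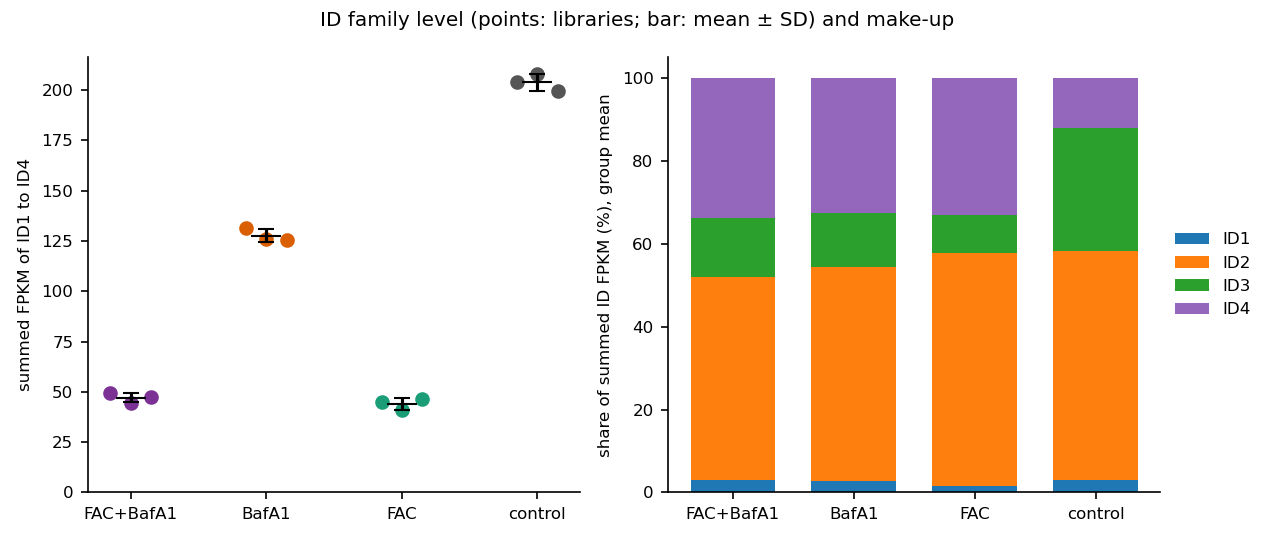
Left, summed FPKM of ID1 to ID4 in each library (points) with the group mean and SD (n = 3); right, the mean share of each gene in that sum (%), as stacked bars. FAC+BafA1 and FAC libraries lie near their means of 47.2 and 44.1 FPKM, against 203.8 FPKM in control, and the ID4 share is 32.5% to 33.8% in the treated groups, against 12.1% in control.

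SMAD6 and BAMBI, both feedback inhibitors of BMP receptors, were lower in every treated group. SMAD6 was at 1.94, 1.86 and 1.82 FPKM in FAC, 1.53, 1.42 and 1.68 FPKM in BafA1, and 6.11, 5.41 and 5.81 FPKM in control. In FAC+BafA1 it was at 1.55, 1.06 and 2.15 FPKM, which overlapped both FAC and BafA1. Its mean was 27.5% of the control mean in FAC+BafA1, 26.7% in BafA1 and 32.4% in FAC. SMAD6 in FAC+BafA1 had the highest relative spread between replicates of any member and group, with a coefficient of variation of 34.4%. The log2 difference was -1.41 ± 0.124 for BafA1 against control and 0.004 ± 0.124 for FAC+BafA1 against BafA1.

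BAMBI was at 5.86, 6.61 and 6.91 FPKM in FAC, 3.68, 4.04 and 4.06 FPKM in BafA1, and 10.13, 8.93 and 9.31 FPKM in control. BAMBI and SMAD6 were the only ones of the 8 genes with a lower mean in BafA1 than in FAC. FAC+BafA1 libraries, at 5.08, 4.47 and 5.31 FPKM, lay below all FAC libraries and above all BafA1 libraries. The log2 difference was -0.49 ± 0.0766 for FAC against control, -1.09 ± 0.0766 for BafA1 against control and 0.27 ± 0.0766 for FAC+BafA1 against BafA1. The difference of FAC+BafA1 from FAC was -0.33 ± 0.0766, and it did not pass limma's adjusted threshold without the second FAC+BafA1 library, at -0.27, or with these groups fitted alone.

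SMAD7, which blocks both BMP and TGF-beta receptors, was at 2.24, 1.86 and 2.01 FPKM in FAC, against 4.42, 4.9 and 5.72 FPKM in control. In BafA1 it was at 4.26, 4.5 and 4.03 FPKM, which overlapped control. Of the 8 genes, SMAD7 alone had overlapping values in BafA1 and control. In FAC+BafA1 it was at 2.74, 3.2 and 3.66 FPKM, above FAC and below BafA1. The log2 difference was -0.98 ± 0.0991 for FAC against control, -0.19 ± 0.0991 for BafA1 against control (-0.26, past the adjusted threshold, without the first control library) and 0.46 ± 0.0991 for FAC+BafA1 against FAC. FAC+BafA1 differed from BafA1 by -0.33 ± 0.0991, and this did not pass the adjusted threshold without the first FAC+BafA1 library, at -0.25.

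SMAD9, the receptor-regulated SMAD that is itself a BMP target, was at 3.44, 3.42 and 3.35 FPKM in FAC, against 6.41, 6.27 and 6.4 FPKM in control. In FAC+BafA1 it was at 3.46, 3.35 and 3.58 FPKM, which overlapped FAC. BafA1 libraries held 4.81, 5.12 and 5.09 FPKM, between FAC and control. The log2 difference was -0.74 ± 0.0532 for FAC against control and -0.29 ± 0.0532 for BafA1 against control. FAC+BafA1 differed from FAC by 0.02 ± 0.0532. Over the 8 genes and 4 groups, the coefficient of variation between replicates was 1.23% to 34.4%, with a median of 6.33%. Among the genes tested, the 8 spanned percentiles 4.06 to 68.7 of the mean level in FAC and percentiles 30.0 to 93.2 in control.

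**Figure D2:**
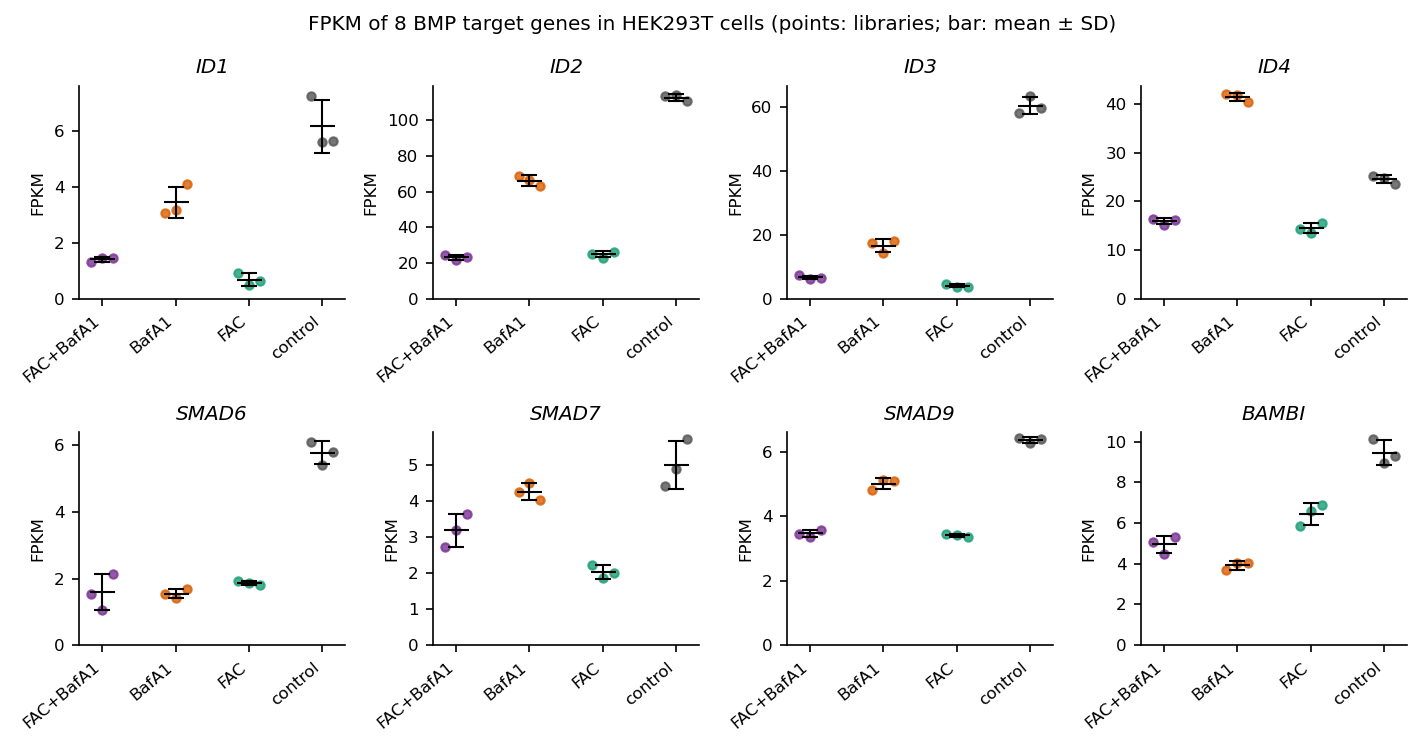
FPKM of each of the 8 genes in every library, with points for libraries and bars for the group mean and SD (n = 3), on y axes that start at 0 and differ between genes. FAC lies below control in every gene, and ID4 alone is higher in BafA1, at 40.57 to 42.05 FPKM against 23.7 to 25.21 FPKM in control.

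In FAC against control all 8 genes were lower, with no overlap between groups and with 8 past limma's adjusted threshold of 0.05. Over all 13682 genes tested, 9.56% passed in either direction and 4.84% passed as lower, against 4.72% as higher. Without the entries filled on only one side of FAC, 5.68% of 13172 genes passed in either direction. The groups did not overlap in 20.3% of all genes. The 8 genes were chosen with this difference known, so nothing is read from their count. Their median log2 difference was -1.11, beside -0.0026 over all genes. In FAC+BafA1 against control, which uses the same control libraries, all 8 were lower too, by log2 differences of -3.00 in ID3 to -0.52 in SMAD7, where 32.9% of genes passed, 16.2% as higher and 16.6% as lower.

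In BafA1 against control, the comparison for lysosomal inhibition without added iron, 6 of the 8 genes were past the threshold as lower and ID4 as higher. Over all genes 67.1% passed, 29.5% as higher and 37.6% as lower. With iron already given, FAC+BafA1 against FAC had ID1, ID3 and SMAD7 past the threshold as higher and BAMBI as lower, where 19.3% of all genes passed, 9.76% as higher and 9.49% as lower. FAC+BafA1 against BafA1 had 6 lower, with BAMBI higher and SMAD6 not past the threshold, where 67.9% passed, 38.8% as higher and 29.1% as lower. Over all genes the balance of calls turned with median-of-ratios scaling: 49.8% of the calls in FAC+BafA1 against BafA1 were then higher, against 57.2%, and 51.0% of those in BafA1 against control were then higher, where lower calls outnumbered higher ones above. In the interaction, the BafA1 change with FAC minus that without FAC, 7 were positive and ID4 was negative, where 50.1% of genes passed, 29.5% as positive and 20.6% as negative. These comparisons share libraries and are not separate evidence.

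The interaction was 2.42 ± 0.132 for ID3, 1.24 ± 0.176 for SMAD6 and 1.22 ± 0.175 for ID1. Under the alternatives it ran from 2.32 to 2.58 for ID3, 1.09 to 1.56 for SMAD6 and 1.11 to 1.81 for ID1. The order of SMAD6 and ID1, which have low levels, thus depended on the setting. For ID1 and ID3 the BafA1 change had opposite signs without and with FAC, with no overlap between groups in either case. The signs of SMAD7 also differed, at -0.19 without FAC, where the groups overlapped, and 0.46 with FAC, and those of SMAD9 were -0.29 and 0.02, where the groups with FAC overlapped. For SMAD6 a BafA1 change of -1.41 without FAC stood beside -0.17 with FAC, and the groups with FAC overlapped. For ID2 the change was -0.76 without FAC and -0.10 with FAC, and the interaction was 0.67 ± 0.0762. BAMBI had 0.76 ± 0.108, SMAD7 0.65 ± 0.14, SMAD9 0.31 ± 0.0752 and ID4 -0.61 ± 0.073. Median-of-ratios scaling and quantile normalization changed no sign among these 8 values.

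**Figure D3:**
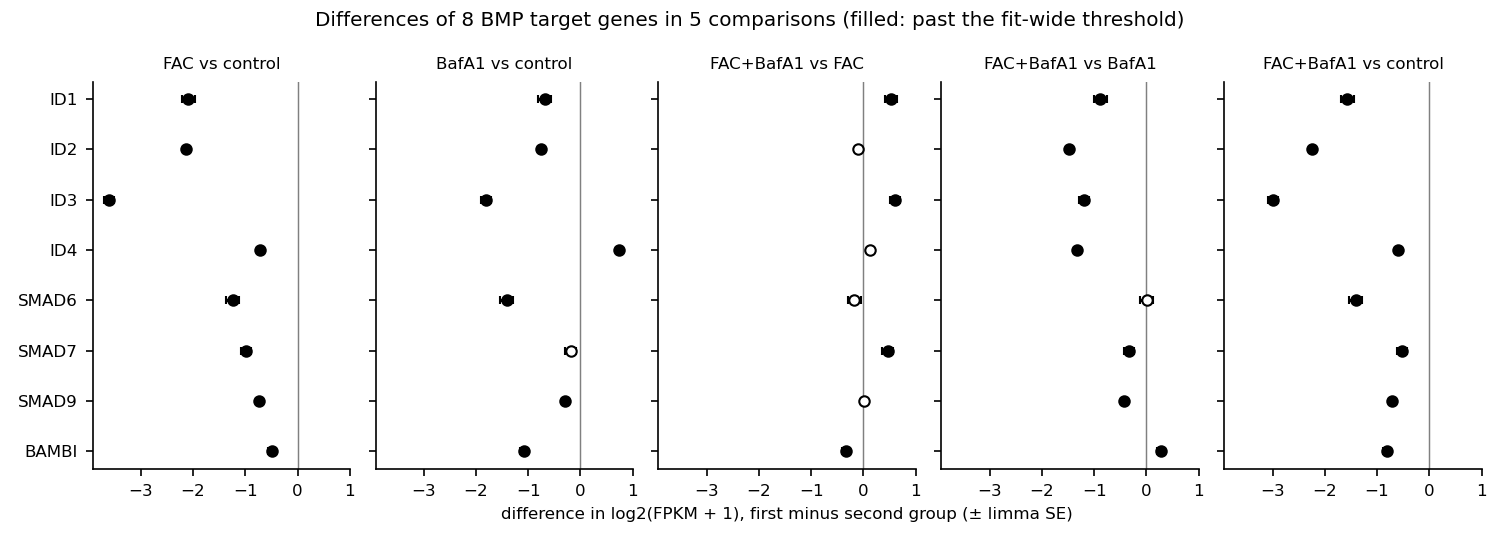
Log2 difference on log2(FPKM + 1) of each of the 8 genes in 5 comparisons (first group minus second), with bars for limma's standard error; filled points pass the adjusted threshold and open points do not. FAC minus control is negative in all, from -3.60 in ID3 to -0.49 in BAMBI.

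**Figure D4:**
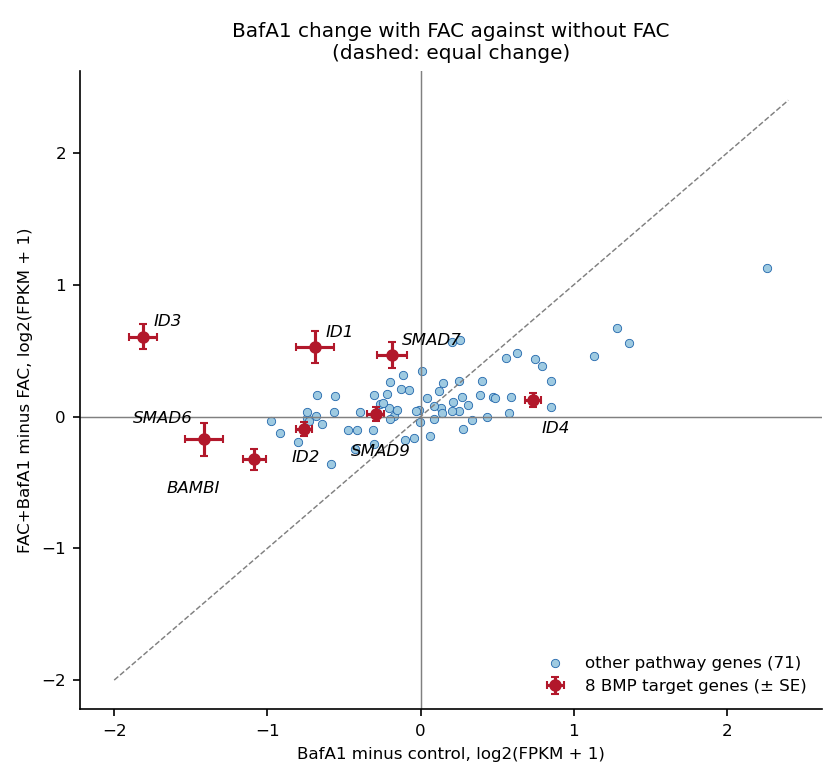
BafA1 change with FAC (y axis, FAC+BafA1 minus FAC) against that without FAC (x axis, BafA1 minus control) on log2(FPKM + 1), with the 8 genes in red with standard errors, the 71 other pathway genes in blue, and a dashed line where the changes are equal. ID3 is at -1.81 without FAC and 0.61 with FAC.

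The other genes of the pathway were read from 9 lists of 114 genes, of which 71 were tested. The lists too were chosen with earlier results of these data known, so their p-values and shares are not an independent test of the pathway. In FAC against control, 7 of the 71 passed (1 higher, 6 lower), or 9.86%, beside 9.56% of all genes. Without the entries filled on one side of FAC only, none of which is a pathway gene, 5.68% of all genes passed. By list, 4 of 9 other BMP targets (all lower), 3 of 10 TGF-beta targets (2 lower) and 1 of 16 SMAD regulators (lower) passed. SKIL stands in both of the latter lists. The lower ones were other target genes of BMP or TGF-beta. HEY1, a Notch and BMP target that represses transcription, averaged 80.02 ± 0.875 FPKM in FAC and 95.2 ± 1.89 in control (log2 -0.25 ± 0.025, adjusted p = 6.25e-06). MSX2, a homeobox target, averaged 6.26 ± 0.54 FPKM in FAC and 9.34 ± 0.426 in control (log2 -0.51 ± 0.068, adjusted p = 0.000102). SKIL, a repressor of SMAD complexes induced by TGF-beta, averaged 4.93 ± 0.421 FPKM in FAC and 7.63 ± 0.487 in control (log2 -0.54 ± 0.08, adjusted p = 0.000275). KLF10, an early TGF-beta target, had a log2 difference of -0.34 (adjusted p = 0.000531). GATA2, a blood and neural transcription factor gene, had -0.42 (adjusted p = 0.000778), and DLX2, a homeobox gene, had -0.19 (adjusted p = 0.0244), both named after their values were seen. The DLX2 call was lost on leaving out any 1 of the control or FAC libraries (adjusted p = 0.0587 to 0.0784). CDKN1A, a cell cycle inhibitor, was higher by 0.18 (adjusted p = 0.0235), and this was lost on leaving out any FAC library, and on leaving out the first or the third control library (adjusted p = 0.0505 to 0.103). Among genes above the minimum of 1 FPKM, 0 of 5 ligands, 0 of 8 receptors, 0 of 5 antagonists, 0 of 5 SMAD transducers, 0 of 8 genes of the TGF-beta and activin branch and 0 of 7 E proteins and related factors passed by limma. At an unadjusted p under 0.05 these counts were 0, 1, 1, 0, 1 and 0. The receptor gene BMPR2 had -0.19 (adjusted p = 0.0738), and passed without the intensity trend (adjusted p = 0.0266). The antagonist gene FSTL1 had -0.16 (adjusted p = 0.105), and passed without the first FAC library (adjusted p = 0.0285). Below that minimum, and named after their values were seen, the antagonist gene NOG was at 0.67, 0.5 and 0.47 FPKM in FAC, against 1.83, 1.97 and 1.67 FPKM in control, and BMPER, which binds BMPs outside the cell, was at 0.49, 0.81 and 0.58 FPKM in FAC, against 1.38, 1.65 and 1.42 FPKM in control. Neither gene's groups overlapped, and with no filter on low values both passed (adjusted p = 0.000353 for NOG and 0.00143 for BMPER). NOG was similarly low in BafA1, at 0.29, 0.56 and 0.71 FPKM, and in FAC+BafA1, at 0.46, 0.29 and 0.43 FPKM. BMPER was at 1.12, 1.04 and 1.33 FPKM in BafA1 and at 0.61, 0.65 and 0.57 FPKM in FAC+BafA1.

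In BafA1 against control 4 of 5 ligands and 5 of 8 receptors and co-receptors passed the threshold, where 67.1% of all genes did. BMP2 rose to 6.37 ± 0.114 FPKM in BafA1, against 1.89 ± 0.292 in control (log2 1.36 ± 0.078, adjusted p = 1.81e-08). BMP4 fell to 1.97 ± 0.225 FPKM, against 4.61 ± 0.14 in control (log2 -0.92, adjusted p = 3.05e-07). BMP6, the ligand tied to iron in the liver, fell to 1.71 ± 0.218 FPKM, against 3.53 ± 0.165 in control (log2 -0.74, adjusted p = 1.41e-05). BMP7, named after its values were seen, fell as well (log2 -0.64, adjusted p = 2.99e-05). In FAC+BafA1 against FAC, BMP2 was the only called ligand, at 3.09 ± 0.159 FPKM in FAC+BafA1 and 1.78 ± 0.0808 in FAC (adjusted p = 0.000492). The type I receptor gene ACVR1 rose in BafA1 to 8.51 ± 0.211 FPKM, against 4.66 ± 0.245 in control, and in FAC+BafA1 to 6.23 ± 0.123 FPKM, against 4.36 ± 0.354 in FAC. Its adjusted p was 3.96e-07 in the first comparison and 0.000528 in the second. The receptors BMPR1A (adjusted p = 0.22) and BMPR2 (adjusted p = 0.587) did not pass in BafA1 against control, and the co-receptor RGMA fell (log2 -0.69, adjusted p = 1.16e-05). HAMP was at 0 to 0.1 FPKM in all libraries and was not tested.

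Among SMAD transducers 4 of 5 rose in BafA1 against control and 1 fell, where 67.1% of all genes passed. Those that rose included SMAD1 (log2 0.56, adjusted p = 9.29e-05), SMAD4 (0.59, adjusted p = 9.82e-06) and SMAD5 (0.43, adjusted p = 1.29e-05). SMAD3 fell (-0.27, adjusted p = 0.0342), a call lost under 6 alternatives, 4 of them with 1 library left out (adjusted p = 0.0507 to 0.118). In FAC+BafA1 against FAC, SMAD1 rose as well (0.45, adjusted p = 0.00363), a call lost with these groups fitted alone (adjusted p = 0.0554). Of the SMAD regulators, 8 of 16 rose and 5 fell in BafA1 against control, or 81.2% called, beside the 67.1% of all genes. The call of SMURF2, a ubiquitin ligase gene among those that rose (adjusted p = 0.0409), was lost under 9 alternatives, 5 of them with 1 library left out (adjusted p = 0.0524 to 0.15). STUB1, a ubiquitin ligase, fell (log2 -0.73, adjusted p = 7.56e-08). The antagonists TWSG1 (-0.42, adjusted p = 8.59e-07) and NBL1 (-0.67, adjusted p = 8.42e-06) fell, of 5 tested. Of E proteins, which ID proteins bind, TCF3 (-0.57, adjusted p = 5.93e-06) and TCF4 (-0.43, adjusted p = 0.000744) fell and TCF12 (0.48, adjusted p = 9.08e-05) rose in BafA1 against control. OLIG2, a neural helix-loop-helix factor, rose (1.13, adjusted p = 7.82e-08) and HAND1 fell (-0.58, adjusted p = 7.02e-07).

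Other target genes moved both ways in BafA1 against control, 4 of 9 tested higher and 4 lower, beside the 67.1% of all genes called. Of these calls, MSX1 (lower, adjusted p = 0.0284) was lost under 6 alternatives, 3 of them without 1 library (adjusted p = 0.0575 to 0.125), and MSX2 (higher, adjusted p = 0.0179) was lost without the third control or the third BafA1 library (adjusted p = 0.066 to 0.0665). JUNB, an AP-1 gene, rose (log2 1.28, adjusted p = 4.36e-08), as did HEY1 (0.58, adjusted p = 1.43e-09) and HES1 (0.34, adjusted p = 0.000118), while DLX5 fell (-0.80, adjusted p = 1.33e-05). TGF-beta targets rose in 7 of 10 and fell in 2, with SMAD3 again among the latter, beside the same 67.1%. CDKN1A was at 38.8 ± 1.6 FPKM in BafA1 and 7.3 ± 0.34 in control (log2 2.26, adjusted p = 4.42e-12). SNAI2 rose by 0.85 (adjusted p = 5.06e-09). In FAC+BafA1 against FAC, 19 of 71 pathway genes rose and 2 fell, or 29.6% called. Of all genes 19.3% were called, 9.76% as higher and 9.49% as lower. Quantile normalization changed the pathway counts to 15 and 4, and leaving out 1 library gave 14 to 22 called pathway genes, against 21. Among those that rose were MSX2 (0.56, adjusted p = 0.000164), JUNB (0.67, adjusted p = 0.000165), SKIL (0.35, adjusted p = 0.0104), CDKN1A (1.13, adjusted p = 2.25e-08) and TIMP1 (0.58, adjusted p = 3.01e-05). HAND1 fell (-0.36, adjusted p = 0.000521), and DLX2 fell (-0.18, adjusted p = 0.0262), a call lost with these groups fitted alone (adjusted p = 0.0677) and on leaving out the first or second FAC library or the first or the third FAC+BafA1 library (adjusted p = 0.0558 to 0.0979). In FAC+BafA1 against BafA1 26 of 71 were higher and 24 lower, or 70.4% called beside 67.9% of all genes, and median-of-ratios scaling made these 22 and 29. Against control 15 were higher and 8 lower, or 32.4% beside 32.9% of all genes. In the interaction, 24 of 71 passed as positive and 14 as negative, and median-of-ratios scaling made these 19 and 19. Over all genes, 58.9% of the interaction calls were positive, and 48.6% with that scaling.

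**Figure D5:**
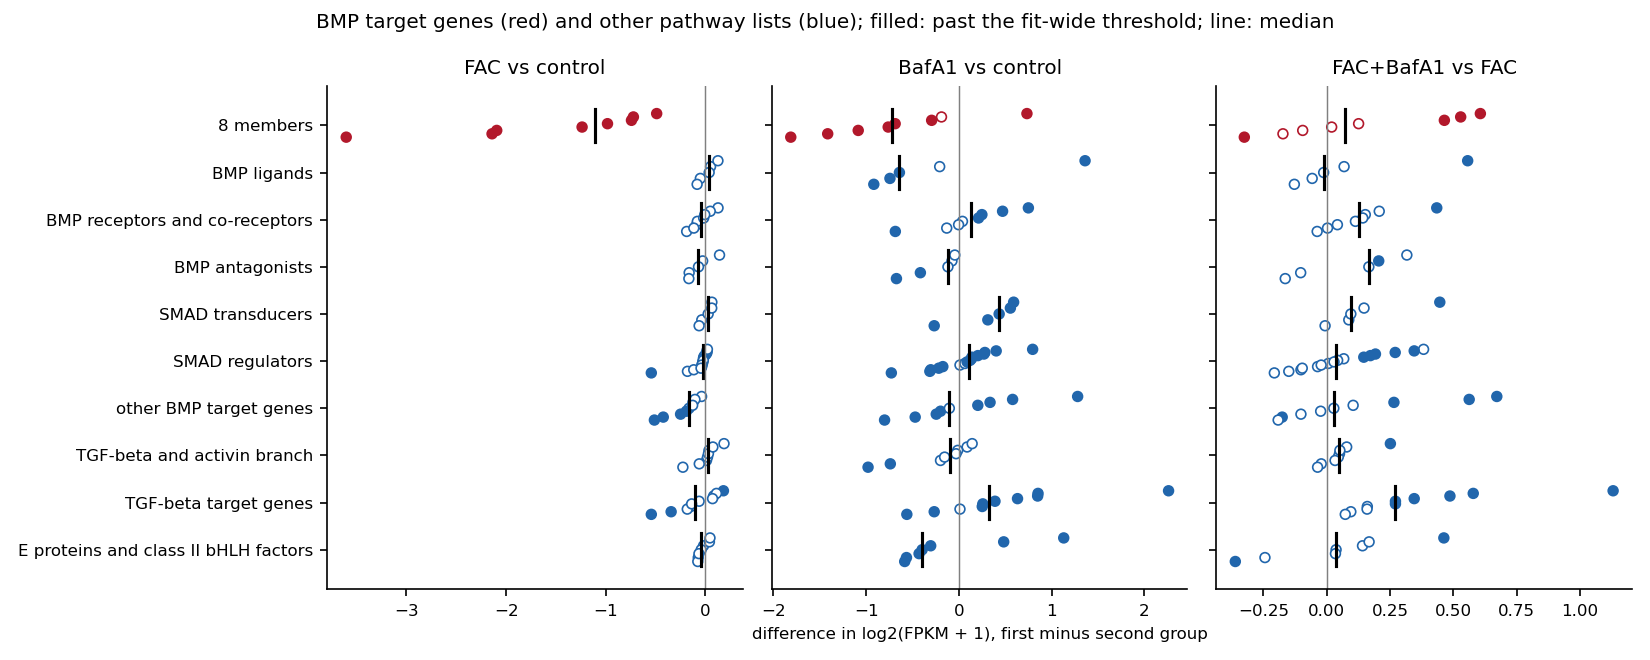
Log2 difference on log2(FPKM + 1) of every tested gene of the 8 (red) and of the 9 other lists (blue) in 3 comparisons, with x axes that differ; filled points pass limma's adjusted threshold and vertical lines are medians. In FAC against control the medians of the other lists lie between -0.16 and 0.04, against -1.11 for the 8 genes.

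Across the 12 libraries, the genes whose log2(FPKM + 1) followed each member most closely were found among the 9050 protein-coding genes that averaged 5 FPKM or more. ID4 was closest to HEY1 (Pearson r = 0.977, n = 12 libraries), whose means were 81.6 FPKM in FAC+BafA1, 142.8 in BafA1, 80.02 in FAC and 95.2 in control. BAMBI was closest to SELENOH (r = 0.979), GPX1 (r = 0.97) and SELENOT (r = 0.969). GPX1 averaged 92.0 FPKM in FAC+BafA1, 67.5 in BafA1, 123.4 in FAC and 184.1 in control. SMAD6 was closest to SHB (r = 0.95), and ID3 to SAMD11 (r = 0.954), at 6.10 FPKM in FAC+BafA1, 8.77 in BafA1, 6.63 in FAC and 17.6 in control. For ID1, ID2, SMAD7 and SMAD9 the closest entries by this rule were ENSG00000272741, ENSG00000274322 and PINX1. Their means were 0 to 0.103 FPKM in the groups with FAC, against 13.2, 35.1 and 25.2 FPKM in control. They resemble the entries filled on one side of FAC only, for which another annotation or quantification cannot be told apart from FAC. With genes of at least 1 FPKM in every library, a condition set after seeing these entries, ID1 was closest to SAMD11 (r = 0.892), ID2 to MARCHF2 (r = 0.935), SMAD7 to IKBIP (r = 0.848) and SMAD9 to SAMD11 (r = 0.935). These correlations describe 12 libraries of 4 groups that share their treatments.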

How the data were processed

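The data are RNA sequencing of polyadenylated RNA from 12 libraries of HEK293T cells, 3 in each of 4 groups assigned from the labels. The authors deposited FPKM values, rounded to 2 decimals, for 56340 gene entries. The submitters' processing notes name STAR, RSEM and GRCh38. Which versions, annotation release and strand setting were used is not given in the sources. The library kit keeps strand, per the labels' protocols.

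From the table, 3 repeated gene IDs were dropped, and gene names were checked against a list that held 56104 of 56337 IDs. In 13 cases a symbol made of digits was replaced through the ID. A count model was not used, since FPKM are scaled values. Low FPKM (under 0.5) of genes with a single transcript 700 to 2000 bases long gave an estimate of depth, taking fragments to be 150 bases. The share of these values within 0.2 of a whole number of fragments was 62.8% to 67.0% with FAC and 52.4% to 55.0% without. An even spread gives 40%, so the depths are rough and no count was recovered. This share thus differed with FAC, as did the entries that were filled, and the cause was not tested.

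Values were taken as log2(FPKM + 1). The 13682 genes averaging 1 FPKM or more across all libraries were tested by limma (3.58.1, under R 4.3.3), with 1 fit for all libraries, a mean per group, no replicate block and an intensity trend, and with p-values adjusted by the Benjamini-Hochberg method within each of 6 comparisons at a threshold of 0.05. Errors of levels are SDs and errors of log2 differences are limma standard errors. The fit was tested on simulated data with independent noise and few changed genes, none of them low in control. That test does not cover comparisons where most genes change, or low genes. Gene positions are from GENCODE release 44, which need not be the authors' release.

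The 8 genes and the gene lists were chosen with earlier results of these data known. Other pathway genes were named by a rule: up to 3 called genes per list with the smallest adjusted p in BafA1 against control and in FAC+BafA1 against FAC, and a set of central genes always. Likeness used the 3 protein-coding genes per member with the highest Pearson r. Same-numbered libraries correlated in their deviations by -0.074 to 0.138 over 18 pairs, so numbers were not taken as pairs. Alternatives were another pseudocount (0.1), a minimum of 5 FPKM or none, 2 other scalings, no trend, a replicate block, only the groups compared, leaving out each library, and, chosen after seeing the data, leaving out entries filled on one side of FAC only. The result of 1 further list of cell type markers is not reported here.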

Additional observations from a re-analysis of the deposited data

Results flagged for a closer look

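For ID3 every BafA1 library lay below every control library while every FAC+BafA1 library lay above every FAC library. The difference of the log2 changes, limma's interaction, was 2.42. ID1 had the same arrangement, with a difference of 1.22. No p is given for either, since these genes were chosen with the values known.

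For 38 of the 71 other pathway genes tested, the BafA1 change differed between cells with and without FAC by limma's interaction at an adjusted p under 0.05, and the values of those that the text names follow. Each value is the log2 change with FAC minus that without FAC. Among ligands, the interaction was -0.80 for BMP2 (adjusted p = 9.02e-05), 0.79 for BMP4, 0.73 for BMP6 and 0.58 for BMP7. Among receptors and co-receptors it was -0.32 for ACVR1, 0.34 for BMPR1A and 0.69 for RGMA. The BMPR1A call (adjusted p = 0.0437) was lost under 12 alternatives, 8 of them with 1 library left out (adjusted p = 0.0526 to 0.117). Antagonists had 0.28 for FSTL1, 0.84 for NBL1 and 0.31 for TWSG1. SMAD transducers and regulators had -0.44 for SMAD4, -0.44 for SMAD5, 0.69 for STUB1 and 0.33 for SKIL. The SKIL call (adjusted p = 0.0271) was lost under 7 alternatives, 5 of them with 1 library left out (adjusted p = 0.0588 to 0.0812). Other BMP targets had -0.55 for HEY1, -0.61 for JUNB, 0.61 for DLX5 and 0.35 for GATA2. The homeobox genes had 0.46 for MSX1 and 0.36 for MSX2, and HES1 had -0.36. In the TGF-beta branch the interaction was 0.77 for LTBP3 and 0.94 for TGFBR3. TGF-beta targets had -1.13 for CDKN1A, -0.58 for KLF10, -0.78 for SNAI2 and 0.32 for TIMP1. E proteins and related factors had 0.60 for TCF3, -0.34 for TCF12, -0.67 for OLIG2 and 0.22 for HAND1. The HAND1 call (adjusted p = 0.0218) was lost under 4 alternatives, with both other scalings and without the third control or the first FAC+BafA1 library (adjusted p = 0.0508 to 0.0845). Over all genes tested, 50.1% had a called interaction.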

How the results depend on the processing

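Of 375 counts of called genes recomputed under the alternatives, 363 stayed within 1.5 times their value. With a minimum mean of 5 FPKM 4 of the 8 genes were tested, so the number past the threshold was 4 in BafA1 against control, FAC against control, FAC+BafA1 against BafA1, FAC+BafA1 against control and the interaction, and 2 in FAC+BafA1 against FAC. Genes called in FAC against control, 1308 of all tested, were 402 with that minimum, 4486 with no filter on low values and 748 without the entries filled on one side of FAC only. In FAC+BafA1 against control 7643 genes were called with no filter, against 4498. Pathway genes called in FAC against control were 11 with no filter, against 7. In FAC+BafA1 against control they were 14 to 23 on leaving out 1 library, with the lowest count without the second control library, against 23. Genes called in FAC+BafA1 against FAC were 1840 to 2646 on leaving out 1 library, against 2634. The cause of these shifts was not tested beyond the number of genes each alternative tests. Of 976 log2 differences of the 8 genes under alternatives, 938 moved by less than the spread between replicates, and signs changed for SMAD6 in FAC+BafA1 against BafA1 (-0.15 to 0.16) and SMAD9 in FAC+BafA1 against FAC (-0.004 to 0.04), neither past the threshold. The correlations gave no clear sign that the numbers pair the libraries, with 5 of 12 closest to their own number, but they cannot exclude it. With the replicate number as a block, 9082 genes were called in BafA1 against control, 2366 in FAC+BafA1 against FAC, 1298 in FAC against control, 9212 in FAC+BafA1 against BafA1, 4287 in FAC+BafA1 against control and 6702 in the interaction, and the 8 genes kept their counts. With 3 libraries a group and about 15 to 37 fragments of ID1 in FAC libraries, low levels are imprecise.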
